A study of Mus musculus with 6 samples.

Results

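The 9 genes described here encode the enzymes of serine synthesis (Phgdh, Psat1, Psph), serine hydroxymethyltransferases (Shmt1, Shmt2), folate-dependent one-carbon enzymes (Mthfd1, Mthfd2, Mthfd1l) and asparagine synthetase (Asns). They were chosen by symbol, and all 9 were found among the 21397 genes of the deposited expression table. RNA sequencing was performed on small intestinal organoids, cultures of intestinal epithelium grown from crypts, which were derived from mice homozygous for a floxed Fpr2 allele (Fpr2f/f), with no Cre given in the labels. The organoids were exposed for 5 days to MMK-1, a peptide agonist of the receptor FPR2, or to 0.1% DMSO as vehicle (Control), with 3 libraries in each group. The protocol gives the dose of MMK-1 as 1 μM, whereas the treatment label of the same samples gives the same figure in millimolar. According to the study, each sample combined organoids of several mice, and age and sex were not given in the labels. The samples are not described in the labels as separate cultures, so p-values measure only the spread between these libraries.

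Serine is made from the glycolytic intermediate 3-phosphoglycerate by Phgdh, Psat1 and Psph in turn. Serine hydroxymethyltransferases split serine into glycine and a carbon unit carried on tetrahydrofolate, Shmt2 in mitochondria and Shmt1 in the cytosol. Mitochondrial Mthfd2 and Mthfd1l oxidise that unit and release it as formate, and cytosolic Mthfd1 takes formate up again for the synthesis of purines, thymidylate and methionine. In cycling cells, such as those of the intestinal crypt, this supply of carbon units serves nucleotide synthesis. Asns makes asparagine from aspartate and glutamine, and together with the serine synthesis genes it is a well-known target of the transcription factor ATF4.

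Levels are given as FPKM, fragments per kilobase of gene scaled to the fragment total of the library, so they can be compared between genes. Whole fragments recovered from these values gave library totals of 35512739 to 37537463. MMK-1 replicate 3 stood apart from its group. The chi-square per degree of freedom between the fragments of libraries of a group, which is near 1 under counting error alone, was 38.6 and 45.2 for the pairs that included it and 2.9 to 5.59 for all other pairs. It was the highest MMK-1 library for 60.7% of the 10551 genes tested, those with a mean FPKM of at least 1, and for 9 of the 9 enzymes. The change of each enzyme is therefore also given without it. Differences are log2 fold changes of MMK-1 over Control on the log2(FPKM + 1) scale, with their standard error (SE) and the Benjamini-Hochberg adjusted p of limma over all genes tested.

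The 3 genes of serine synthesis were all higher in MMK-1-treated organoids. Phgdh, the first enzyme of the pathway (NCBI gene 236539, chr3:98313171-98339969 on the minus strand of GRCm38, 12 exons), had FPKM values of 45.88, 45.36 and 43.57 in Control and 84.10, 81.82 and 91.92 in MMK-1. Every MMK-1 library was therefore well above every Control library. The mean rose from 44.94 ± 1.21 to 85.95 ± 5.30 (SD, n = 3 per group), with a log2 fold change of 0.92 (SE 0.05, limma adjusted p = 7.6e-07). Without MMK-1 replicate 3 the log2 fold change of Phgdh was 0.87.

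Psat1 encodes the aminotransferase that follows Phgdh (NCBI gene 107272, chr19:15905123-15925059, minus strand, 9 exons). Its FPKM values were 53.06, 53.04 and 53.92 in Control and 69.94, 69.96 and 74.34 in MMK-1. The groups did not overlap, but the increase was the smallest of the 3 steps. The log2 fold change of Psat1 was 0.41 (SE 0.04, limma adjusted p = 2.3e-05), and 0.38 without MMK-1 replicate 3.

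Psph encodes the phosphatase that releases free serine, the last step (NCBI gene 100678, chr5:129765558-129787443, minus strand, 8 exons). It was the least abundant of the 9 enzymes, with FPKM values of 3.19, 3.25 and 3.31 in Control and 8.02, 8.91 and 9.46 in MMK-1. These values rested on 468, 479 and 486 fragments in Control and on 1117, 1256 and 1378 in MMK-1. Psph had the largest change of the 9, from 3.25 ± 0.06 to 8.80 ± 0.73 FPKM (SD, n = 3 per group), a 2.71-fold ratio of the means. On the log2(FPKM + 1) scale its log2 fold change was 1.20 (SE 0.06, limma adjusted p = 4.8e-07), and 1.15 without MMK-1 replicate 3. Psph overlaps Cct6a, a chaperonin subunit gene on the opposite strand, by 452 bases of the annotated gene bodies, and Cct6a itself had mean FPKM values of 93.9 in Control and 106 in MMK-1. Whether counting used strand is not stated, so a share of the fragments on Psph may belong to Cct6a.

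The ratio of Phgdh to Psph within a library, which does not depend on scaling between libraries, fell. It was 14.4, 13.9 and 13.1 in Control and 10.5, 9.18 and 9.72 in MMK-1. The ratios of the groups did not overlap, and the first step of the pathway thus rose by less than the last. The log2 difference was -0.50, and -0.49 without MMK-1 replicate 3. An exact two-sided permutation test gave p = 0.1, adjusted over the 4 ratios tested 0.1, which is the smallest p that 3 against 3 libraries allow.

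**Figure D1:**
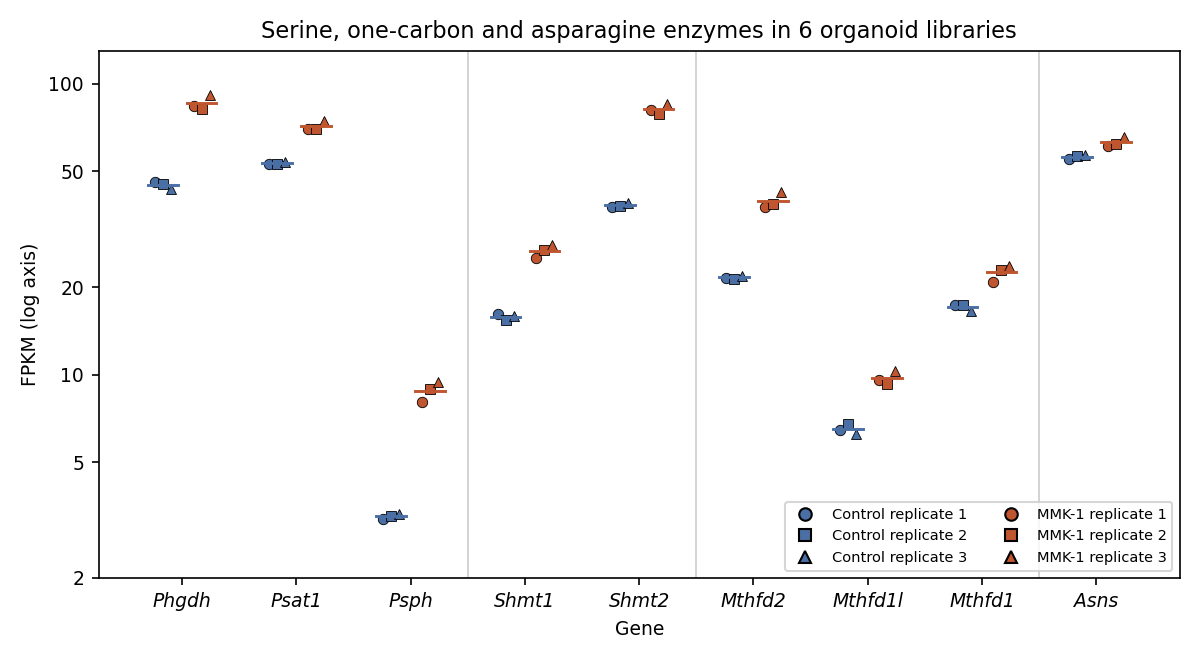
FPKM on a log axis of the 9 enzymes in the 6 libraries. Circles, squares and triangles are replicates 1, 2 and 3, blue for Control and orange for MMK-1, and short lines are group means. For each gene the lowest MMK-1 library lies above the highest Control library, with the widest separation for Psph (3.25 to 8.80 FPKM in the means) and the narrowest for Asns (56.2 to 62.9 FPKM).

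Both serine hydroxymethyltransferases rose, the mitochondrial one by more. Shmt2 (NCBI gene 108037, chr10:127517123-127522444, minus strand, 12 exons) had FPKM values of 37.69, 38.02 and 39.02 in Control and 81.41, 78.97 and 85.46 in MMK-1. The MMK-1 libraries were all more than 2-fold above the Control libraries. The mean rose from 38.24 ± 0.69 to 81.95 ± 3.28 (SD, n = 3 per group), with a log2 fold change of 1.08 (SE 0.04, limma adjusted p = 1.1e-07). Without MMK-1 replicate 3 it was 1.05. Shmt2 overlaps 32 bases of Ndufa4l2 on the opposite strand, whose mean FPKM was 0.162 in Control and 2.96 in MMK-1.

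Shmt1, the cytosolic enzyme (NCBI gene 20425, chr11:60788897-60811265, minus strand, 12 exons), had FPKM values of 16.16, 15.38 and 15.94 in Control and 25.09, 26.87 and 27.93 in MMK-1. The groups were clearly apart. The log2 fold change of Shmt1 was 0.71 (SE 0.05, limma adjusted p = 2.9e-06), and 0.68 without MMK-1 replicate 3. Shmt1 overlaps 184 bases of Smcr8 on the opposite strand, with mean FPKM values of 5.64 in Control and 7.995 in MMK-1.

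The ratio of Shmt2 to Shmt1 was 2.33, 2.47 and 2.45 in Control and 3.24, 2.94 and 3.06 in MMK-1. Transcripts of the mitochondrial enzyme thus outnumbered those of the cytosolic one in every library, and by more after MMK-1. The mean ratio was 1.27-fold higher (log2 difference 0.35, exact permutation p = 0.1, adjusted 0.1), and the log2 difference without MMK-1 replicate 3 was also 0.35.

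The folate-interconverting enzymes showed the same order of compartments. Mthfd2, the mitochondrial dehydrogenase and cyclohydrolase (NCBI gene 17768, chr6:83305704-83326011, minus strand, 8 exons), had FPKM values of 21.44, 21.40 and 21.90 in Control and 37.64, 38.62 and 42.35 in MMK-1. The Control libraries were nearly equal and all MMK-1 libraries were higher. The log2 fold change was 0.84 (SE 0.05, limma adjusted p = 1.2e-06), and 0.79 without MMK-1 replicate 3. Mthfd2 overlaps 2799 bases of Gm43890 on the same strand, which is not among the genes analysed here.

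Mthfd1l, the mitochondrial formyltetrahydrofolate synthetase that yields formate (NCBI gene 270685, chr10:3972892-4167081, plus strand, 28 exons), had FPKM values of 6.46, 6.75 and 6.23 in Control and 9.58, 9.28 and 10.3 in MMK-1. It was the lowest of the folate enzymes in both groups. Its log2 fold change was 0.52 (SE 0.05, limma adjusted p = 3.1e-05), and 0.48 without MMK-1 replicate 3. Mthfd1l overlaps Gm16074 (444 bases) and Gm25515 (157 bases) on the same strand, neither of them among the genes analysed here.

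Mthfd1, the cytosolic protein that joins synthetase, cyclohydrolase and dehydrogenase activities (NCBI gene 108156, chr12:76254406-76319820, plus strand, 28 exons), had FPKM values of 17.36, 17.40 and 16.60 in Control and 20.84, 22.95 and 23.59 in MMK-1. The groups did not overlap, and the lowest MMK-1 library was replicate 1. The log2 fold change of Mthfd1 was 0.37 (SE 0.05, limma adjusted p = 0.00026), and 0.34 without MMK-1 replicate 3. An antisense gene, Gm34868, is annotated across 19090 bases of the Mthfd1 locus and is not among the genes analysed here.

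Both mitochondrial enzymes rose relative to Mthfd1 within the libraries. The ratio of Mthfd2 to Mthfd1 was 1.24, 1.23 and 1.32 in Control and 1.81, 1.68 and 1.79 in MMK-1, with a log2 difference of 0.48 (exact permutation p = 0.1, adjusted 0.1). The ratio of Mthfd1l to Mthfd1 was 0.372, 0.388 and 0.375 in Control and 0.460, 0.404 and 0.435 in MMK-1, with a log2 difference of 0.19 (exact permutation p = 0.1, adjusted 0.1). The groups did not overlap for either ratio, and the shift was larger for Mthfd2 than for Mthfd1l. Without MMK-1 replicate 3 the log2 differences were 0.47 and 0.19.

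**Figure D2:**
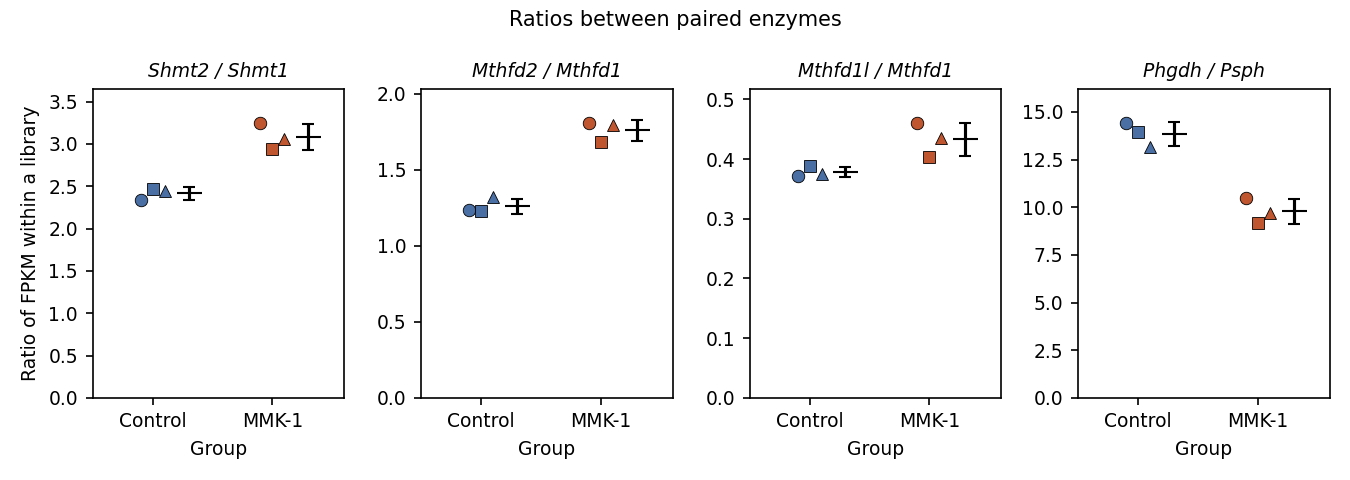
Ratios of FPKM within each library for the 4 enzyme pairs, on linear axes from 0. Circles, squares and triangles are replicates 1, 2 and 3 of Control (blue) and MMK-1 (orange), and the black marks to the right give the mean and SD (n = 3). The groups are separate in each panel, with Shmt2 over Shmt1 rising from a mean of 2.42 to 3.08 and Phgdh over Psph falling from 13.8 to 9.79.

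Asns changed least of the 9. Its FPKM values were 55.07, 56.51 and 57.03 in Control and 61.02, 62.23 and 65.51 in MMK-1 (NCBI gene 27053, chr6:7675165-7693209, minus strand, 12 exons). The groups did not overlap, but the mean was only 1.12-fold higher. The log2 fold change of Asns was 0.16 (SE 0.04, limma adjusted p = 0.0074), and 0.13 without MMK-1 replicate 3. This call depended on the scaling between libraries, with 0.08 and adjusted p = 0.071 after upper-quartile scaling and 0.03 and adjusted p = 0.39 after median-of-ratios scaling. Asns was the most abundant of the 9 enzymes in Control and only the fourth in MMK-1.

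The upstream sequence of Asns is shown beside those of Psph and Shmt2, the members with the smallest and the 2 largest changes, because all of these genes are commonly grouped as responsive to amino acid supply. The sequences are from RefSeq on GRCm38.p6, each covering the 150 bases before a start annotated there, 5′ to 3′ on the strand of the gene. For Psph that start lies inside the locus given above, so its 150 bases are part of that locus. The starts used for Mthfd2, Mthfd1l and Mthfd1 and an additional start of Psat1 also lie inside their loci. Capitals mark the letters TGATGNAA, a form of the composite element bound by C/EBP and ATF factors, searched on both strands.
Asns (chr6:7693210-7693359, minus strand): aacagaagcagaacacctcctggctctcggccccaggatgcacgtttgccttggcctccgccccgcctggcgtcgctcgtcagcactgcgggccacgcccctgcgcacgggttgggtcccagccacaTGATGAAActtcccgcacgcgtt
Psph (chr5:129787254-129787403, minus strand): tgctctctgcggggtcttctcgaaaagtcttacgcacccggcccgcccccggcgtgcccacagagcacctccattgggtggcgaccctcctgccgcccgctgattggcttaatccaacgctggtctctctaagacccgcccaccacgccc
Shmt2 (chr10:127522445-127522594, minus strand): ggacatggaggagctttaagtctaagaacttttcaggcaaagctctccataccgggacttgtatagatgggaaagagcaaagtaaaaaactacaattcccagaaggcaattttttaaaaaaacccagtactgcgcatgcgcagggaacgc

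The Asns match, TGATGAAA, began 23 bases before the start. Among the 10 promoter windows of the 9 genes, each from 250 bases before to 50 bases after a start, it was the only match. The letters were present in 3.97% of the 32851 mouse promoter windows of the same length. The match is a description of the sequence, and a window without it says nothing about binding of a factor. None of the other members had a match in their windows, so no relation between these letters and the size of a change can be read from 1 match.

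As a group, 9 of the 9 enzymes were higher at an adjusted p of at most 0.05, a call made in this direction for 48.5% of all genes tested and in the lower direction for 24.7%. Likewise 9 of 9 had every MMK-1 library above every Control library, as did 50.5% of all genes tested. At a fold change of at least 2 with p of at most 0.05, 2 enzymes were called, Psph and Shmt2, against 3.39% of genes called higher and 3.65% called lower. At a fold change of at least 1.5, 5 were called, with Phgdh, Mthfd2 and Shmt1 added, against 14.2% of genes called higher and 8.1% called lower. By adjusted p the background was itself high, so that count is no result about the enzymes, and their description rests on the sizes of the changes.

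The 9 enzymes had a median log2 fold change of 0.71, beside 0.13 over all genes tested. Median-of-ratios scaling moved the median of all genes to 0.02 and that of the enzymes to 0.59. Under that scaling 8 enzymes, without Asns, were higher at an adjusted p of at most 0.05, as were 37.5% of all genes. Shmt2 then fell just short of the 2-fold threshold with a log2 fold change of 0.95, and Psph stayed above it at 1.10. Without MMK-1 replicate 3 the medians were 0.68 and 0.12.

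**Figure D3:**
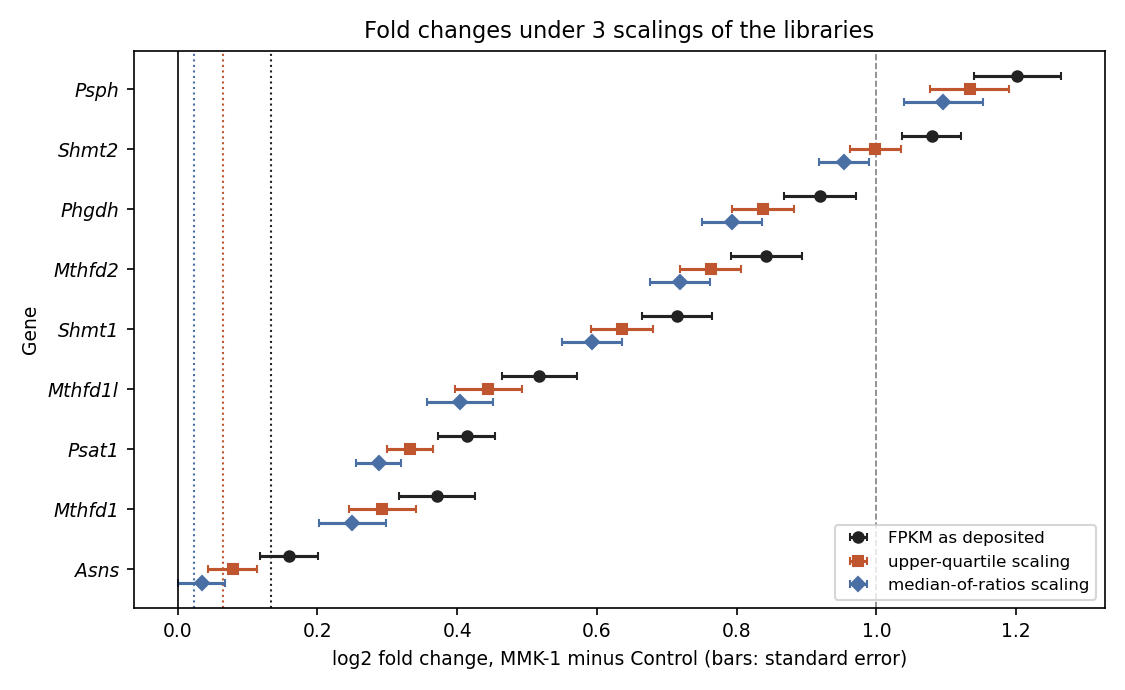
Log2 fold changes of the 9 enzymes with standard errors, for FPKM as deposited (black circles), upper-quartile scaling (orange squares) and median-of-ratios scaling (blue diamonds). Dotted lines mark the median of all genes tested under each scaling and the dashed line a 2-fold change. Psph lies to the right of the dashed line under each scaling, Shmt2 only as deposited (1.08), and Asns lies near the median of all genes under each.

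The order of the enzymes differed between the groups. In Control, levels fell from Asns through Psat1, Phgdh, Shmt2, Mthfd2, Mthfd1, Shmt1 and Mthfd1l to Psph, and no neighbours in that order overlapped in their ranges. In MMK-1 the order was Phgdh, Shmt2, Psat1, Asns, Mthfd2, Shmt1, Mthfd1, Mthfd1l and Psph. The ranges of Phgdh and Shmt2 overlapped there, as did those of Mthfd1l and Psph, so their group ranges do not separate either pair. Within each MMK-1 library, however, Phgdh was above Shmt2 (ratios of 1.03, 1.04 and 1.08) and Mthfd1l above Psph (1.19, 1.04 and 1.09).

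Transporters and enzymes that handle serine and glycine moved in both directions. Of 17 listed genes 13 were tested, of which 8 rose and 3 fell at an adjusted p of at most 0.05, beside 48.5% and 24.7% of all genes tested. The median log2 fold change was 0.26, beside 0.13 over all genes, and was 0.14 after median-of-ratios scaling and 0.10 after a GC content correction, where the median of all genes was 0.02 and 0.03. The glycine transporter Slc6a9 rose most, from FPKM values of 3.65, 3.80 and 3.65 to 12.8, 12.9 and 13.8 (log2 fold change 1.59, SE 0.05, limma adjusted p = 2.6e-08). The neutral amino acid transporter Slc38a2 rose from 30.3, 30.4 and 29.9 to 87.7, 86.9 and 72.1 (log2 fold change 1.41, SE 0.07, limma adjusted p = 4.5e-07). Unlike the enzymes, Slc38a2 was lowest in MMK-1 replicate 3 among the MMK-1 libraries, and without that library its log2 fold change was 1.502. Sfxn1, which carries serine into mitochondria to supply Shmt2, fell from a mean of 53.3 ± 1.8 to 33.5 ± 1.3 FPKM (SD, n = 3 per group, log2 fold change -0.65, limma adjusted p = 3.2e-06). The other sideroflexins of the list were far less abundant and rose, Sfxn2 from 2.00 to 3.40 FPKM (0.55, limma adjusted p = 2.1e-05) and Sfxn3 from 1.41 to 3.07 (0.76, limma adjusted p = 1.6e-05). Glycine decarboxylase, Gldc, was near 0, with 0 to 2 fragments in every library. Cbs, which joins serine to homocysteine and was singled out after its values were seen, had 6, 5 and 13 fragments in Control and 82, 117 and 105 in MMK-1, with a mean FPKM too low for the test.

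Of 8 genes of folate uptake, storage and reduction 6 were tested, of which 2 rose and 1 fell, beside 48.5% and 24.7% of all genes tested. The median was 0.08, and it was -0.03 after median-of-ratios scaling and -0.04 after the GC content correction. The proton-coupled folate transporter Slc46a1 rose from FPKM values of 5.68, 6.06 and 5.92 to 14.5, 13.6 and 15.3 (log2 fold change 1.17, SE 0.05, limma adjusted p = 2.4e-07).

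Among 10 other folate-dependent enzymes 9 were tested, of which 6 rose and 2 fell, beside 48.5% and 24.7% of all genes tested, with a median of 0.43 (0.31 after median-of-ratios scaling and 0.27 after the GC content correction). The formyltetrahydrofolate dehydrogenases moved apart by compartment. Cytosolic Aldh1l1 fell from FPKM values of 31.9, 30.8 and 31.0 to 14.8, 14.0 and 16.2 (log2 fold change -1.01, SE 0.06, limma adjusted p = 6.8e-07), and mitochondrial Aldh1l2 rose from a mean of 3.33 to 6.19 FPKM (log2 fold change 0.73, limma adjusted p = 2.8e-06). Thymidylate synthase, Tyms, rose from 3.94 ± 0.29 to 5.63 ± 0.37 FPKM (SD, n = 3 per group, log2 fold change 0.43, limma adjusted p = 0.00035). In the methionine cycle 7 of 11 genes were tested, 4 rose and 1 fell, beside the same shares of all genes, with a median of 0.37 (0.24 after median-of-ratios scaling and 0.28 after the GC content correction). The extremes there were Mat2a, which makes S-adenosylmethionine (0.54), and Ahcyl2 (-0.66).

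Of 23 genes listed as ATF4 and its known targets outside the 9 enzymes all were tested, and 20 rose and 1 fell at an adjusted p of at most 0.05, beside 48.5% and 24.7% of all genes tested. Their median was 0.65, beside 0.13 over all genes (0.53 after median-of-ratios scaling and 0.46 after the GC content correction). At least 2-fold increases were found for Stc2 (log2 fold change 1.74), Ddit4 (1.48), Nupr1 (1.26) and Atf3 (1.01). Atf3 was below 2-fold without MMK-1 replicate 3 (0.96), after upper-quartile (0.94) and median-of-ratios scaling (0.90) and after the GC content correction (0.98). Slc3a2, the heavy chain of amino acid exchangers, fell (-0.49, limma adjusted p = 4.9e-05). The Atf4 transcript had FPKM values of 210, 207 and 210 in Control and 208, 202 and 220 in MMK-1, which overlapped. Its log2 fold change was 0.01 (95% interval -0.09 to 0.10, limma adjusted p = 0.91), and after median-of-ratios scaling -0.12 with adjusted p = 0.012. Without MMK-1 replicate 3 the log2 fold change of Atf4 was -0.03. ATF4 protein, which is controlled at translation, was not measured.

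The 18 cytosolic aminoacyl-tRNA synthetase genes, which charge tRNAs with amino acids, were all tested, and 14 rose and 3 fell, beside 48.5% and 24.7% of all genes tested, with a median of 0.22 (0.10 after median-of-ratios scaling and 0.15 after the GC content correction). They ranged from -0.31 for Qars to 0.76 for Vars, and none reached 2-fold in either direction. After median-of-ratios scaling 9 of them were called higher, beside 37.5% of all genes under that scaling, and Hars, Tars and Yars changed sign. In aspartate and asparagine metabolism 6 of 7 genes were tested, with 4 higher and 2 lower, beside 48.5% and 24.7% of all genes, and a median of 0.24 (0.14 after median-of-ratios scaling and 0.20 after the GC content correction). The asparaginase gene Aspg rose most there (0.92, limma adjusted p = 9.5e-07) and Nit2 was lowest (-0.38, limma adjusted p = 0.00035).

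**Figure D4:**
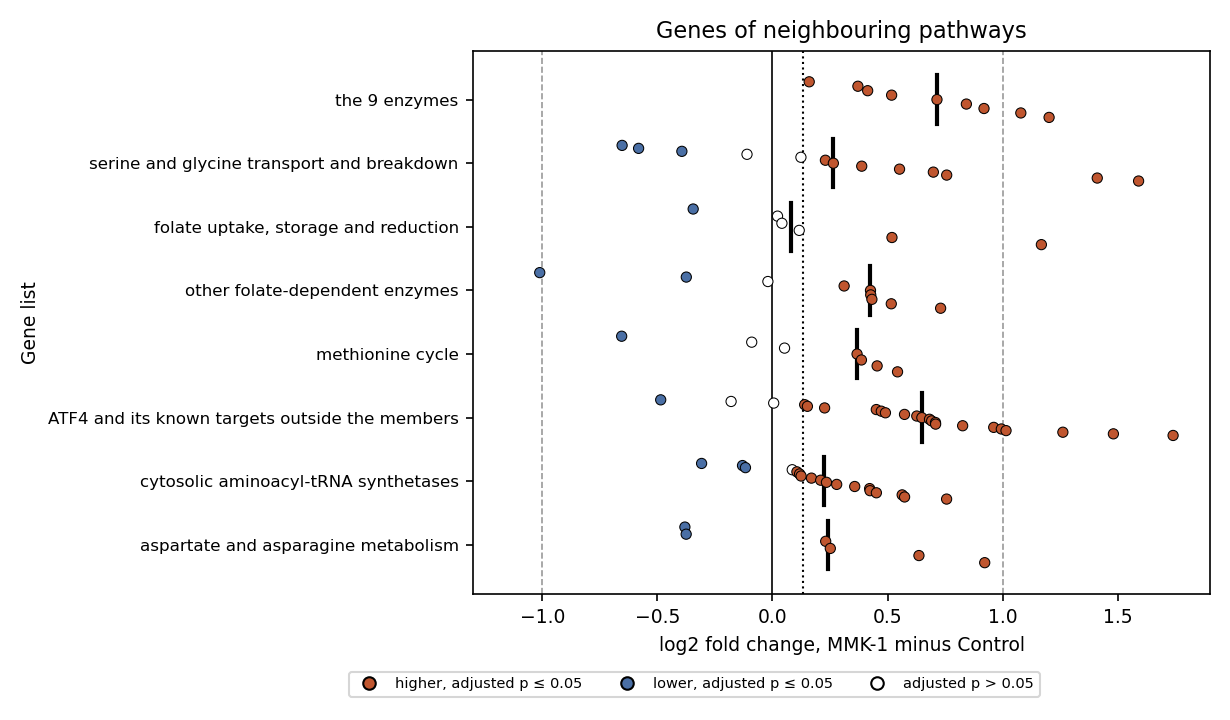
Log2 fold changes of the tested genes of the 9 enzymes and of 7 neighbouring gene lists, each point a gene. Fill gives the limma call, thick bars the median of each list, the dotted line the median of all genes tested (0.13) and dashed lines 2-fold changes. The 9 enzymes (median 0.71) and the ATF4 list (median 0.65) lie farthest to the right, whereas the folate uptake list is centred near 0.

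Without MMK-1 replicate 3 the medians of these 7 lists lay between 0.04 for folate uptake and 0.63 for the ATF4 list. The log2 fold changes then were 1.70 for Stc2, 1.56 for Slc6a9 and 1.13 for Slc46a1, and -0.68 for Sfxn1 and -1.06 for Aldh1l1.

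The genes nearest to Psph in pattern, by root mean square distance of centred log2(FPKM + 1) over the 6 libraries, were Maged1 (0.021), Spef1 (0.027) and Qsox1 (0.039). Those nearest to Asns were Dip2b (0.0054), Get3 (0.0081) and Psma7 (0.0091). None of these is an enzyme of the pathways above.

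Markers of several cell types moved together with the enzymes. Cycling-cell genes (Mki67, Top2a, Pcna, Ccnb1, Cdk1) rose in 5 of 5 cases, with a summed FPKM of 169 to 170 in Control and 265 to 282 in MMK-1 and a median log2 fold change of 0.94. Stem cell genes rose in 5 of 5 (summed FPKM 44.3 to 44.8 and 306 to 320) and Paneth cell genes in 4 of 4 (379 to 420 and 1235 to 1357). Enterocyte genes fell in 7 of 8 (8205 to 8329 and 4807 to 5195), and the exception, Fabp1, rose (log2 fold change 0.17, limma adjusted p = 0.014). Of the goblet cell genes 3 of 4 rose and 1 fell (909.8 to 969.9 and 1149 to 1250), and of the enteroendocrine genes 2 of 3 rose (141 to 155 and 168 to 184). Of all genes tested, 48.5% were called higher and 24.7% lower by the same rule. The part of these shifts in the changes of the enzymes was not tested, and in bulk RNA more cells that express an enzyme and more of its RNA per cell cannot be told apart. The 4 epithelial genes were abundant in both groups but did not move as 1 group. Epcam had a mean of 392 FPKM in Control and 391 in MMK-1 (limma adjusted p = 0.93), Cdh1 rose (log2 fold change 0.17, limma adjusted p = 0.0036), Krt8 fell (-0.30, limma adjusted p = 0.00024), and Vil1 fell from 566 to 245 FPKM (-1.21, limma adjusted p = 5.7e-08). After median-of-ratios scaling Cdh1 was no longer called (0.04, limma adjusted p = 0.27) and Epcam was lower (-0.13, limma adjusted p = 0.012). The summed FPKM of 6 leukocyte genes was 5.38 to 6.19 in Control and 1.77 to 2.89 in MMK-1, with Ptprc, Tyrobp and Cd3e near 0. Most of that sum came from Cd68, which fell from 3.17 to 1.15 FPKM (log2 fold change -0.96, limma adjusted p = 0.00015), and Itgam, which fell from 2.36 to 0.938 (-0.79, limma adjusted p = 9.2e-06). The sum of 6 mesenchymal genes was 4.71 to 5.15 and 3.39 to 4.92, nearly all of it from Vim.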

How the data were processed

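RNA from 3 Control and 3 MMK-1 organoid samples was analysed. The authors deposited FPKM values per gene with no further scaling stated. The submitters' processing notes name HISAT2, HTSeq, DESeq2, R 3.2.0 and the mm10 build, and strand use in counting is not given in the sources used here. Members and gene lists were chosen with earlier results of these data known. Genes were identified by the symbols and NCBI gene numbers of the table. Gene coordinates are from RefSeq, and strands, exon counts and overlapping genes from GENCODE vM21 on GRCm38. Promoter sequences are from RefSeq GRCm38.p6, the same build.

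Of 21397 genes, 10551 whose mean over the libraries reached 1 FPKM were fitted with limma 3.58.1 (lmFit, eBayes with trend, two-sided) in R 4.3.3 on log2(FPKM + 1), a pseudocount of 1, which understates changes of low genes. There was no replicate block. Calls used an adjusted p of at most 0.05, or a fold change of at least 2 with p of at most 0.05, the study's own thresholds. P-values were adjusted over all genes tested. The genes named were the 9 enzymes; from each list those called at 2-fold and the largest change in each direction; Atf4, Tyms and Slc46a1; and the 3 genes nearest in pattern to the enzymes with the highest and lowest change. A few further genes were named because they fell or were cell type markers, and some genes that the rule covers are not reported here.

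Each gene's FPKM is a whole number of fragments times a factor per library and length. The implied length was within 0.1 of a whole number for 100% of the 20676 genes above 0, which gave the fragments and totals, of which 99.7% lay on listed genes in each library. Over the genes tested as a whole, counting error was below the spread between libraries. This need not hold for each enzyme in each group, and fragments cover counting error only. Ratios and figures were computed with scipy 1.17.1, pandas 2.3.3 and numpy 2.4.6 and drawn with matplotlib 3.10.9 in Python 3.11.15. The recovery of fragments and the limma fit were tested on simulated data. Alternatives were upper-quartile and median-of-ratios scaling, no filter, a pseudocount of 0.1, limma-voom on recovered fragments, a GC content correction (loess span 0.3, 96.4% of tested genes with a value), a fold threshold of 1.5, a replicate block and leaving out each library. The FPR family was not analysed here.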

Additional observations from a re-analysis of the deposited data

How the results depend on the processing

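All 9 enzymes kept a positive log2 fold change under each alternative run, and 8 kept their call; Asns lost it after upper-quartile scaling (0.0787, adjusted p = 0.071) and median-of-ratios scaling (0.0342, adjusted p = 0.39). The number of enzymes at least 2-fold higher fell from 2 to 1 under upper-quartile scaling, median-of-ratios scaling and the GC content correction, and was 5 at a threshold of 1.5. Calls over all genes were 5118 higher and 2606 lower (66.3% higher) as deposited, 4395 and 3291 (57.2%) after upper-quartile scaling, 3960 and 3640 (52.1%) after median-of-ratios scaling and 4048 and 3515 (53.5%) after the GC content correction. The 2-fold rule called 358 higher and 385 lower. With a pseudocount of 0.1 it called 676 and 486, with limma-voom 727 and 500, and with the GC content correction 227 and 427.

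At a threshold of 1.5 the serine and glycine list had 4 genes higher and 1 lower, and the folate uptake list 1 higher. The other folate enzymes had 1 higher and 1 lower, and the methionine cycle 1 lower. The ATF4 list had 13 higher, the tRNA synthetases 1 higher and the aspartate list 2 higher. Of all genes, 14.2% were called higher and 8.1% lower at that threshold. At 2-fold the ATF4 list had 3 higher under both scalings and the GC content correction, and 6 with a pseudocount of 0.1 or limma-voom. The aspartate list had 1 gene at 2-fold with a pseudocount of 0.1 and with limma-voom. By adjusted p, the methionine cycle had 2 genes lower under both scalings, the GC content correction and no filter, and the other folate enzymes 1 lower with no filter. The ATF4 list had 2 lower under upper-quartile scaling and the GC content correction and 3 under median-of-ratios scaling, which also left 9 tRNA synthetases higher. The cause of these shifts was not tested.

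Leaving out 1 library at a time gave ranges of 0.87 to 0.95 for Phgdh, 1.15 to 1.26 for Psph, 1.05 to 1.11 for Shmt2 and 0.13 to 0.18 for Asns, with every call kept. The other folate enzymes then had 1 to 2 genes lower (1 without Control replicate 3 or MMK-1 replicate 2) and 0 to 1 at least 2-fold lower (0 without Control replicate 1 or MMK-1 replicate 2), the ATF4 list 1 to 2 lower (2 without Control replicate 3 or MMK-1 replicate 3), and the tRNA synthetases 1 to 3 lower (1 without Control replicate 1 or 3 or MMK-1 replicate 1 or 2).

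Deviations from the group mean showed no pairing by replicate number, with correlations between same-numbered libraries of 0.0253, -0.04 and 0.0279. These values cannot show whether the samples were paired by design. A replicate block kept all 9 enzymes called, with 5024 genes higher and 2543 lower. With 3 libraries in each group the ratios cannot reach an exact p below 0.1.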
